A study of Homo sapiens with 24 samples.

Results

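RNA levels were compared between HCT116, an established colorectal carcinoma line, and 841CON, a line labelled as normal colon epithelium. The comparison used the input RNA libraries (INPUT) of a ribosome profiling series: 2 from HCT116 and 2 from 841CON, out of 24 libraries in all, of which 12 are INPUT. The libraries were taken by their titles. Both lines are labelled WT, and both were treated with cycloheximide, which stops elongating ribosomes, at 100 µg/mL for 10 minutes before lysis. HCT116 was grown in RPMI-1640 and 841CON in EMEM, with the same serum and antibiotics, so line and medium cannot be told apart. Each condition is a single line. Nothing in the labels tells whether a pair of libraries stems from different cultures, and the p-values rest on a spread that may be technical. The other INPUT groups, also with 2 libraries each, were HCT15 and SW620 (both colorectal carcinoma lines), and HCT15 with the PLVX vector and HCT15 overexpressing COPS7B. They entered the fit to estimate the spread.

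The colon epithelium is a renewing sheet in which dividing cells at the crypt base give rise to absorptive and secretory cells. Colorectal carcinoma arises from it, most often after the Wnt pathway has become active without its ligand. In ribosome profiling the input RNA gives each gene's transcript level, against which ribosome footprints are read. It therefore reports what the cells transcribe and keep, not what they translate.

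The tables identify genes by Ensembl ID only, and the reference table used here pairs none of these IDs with a symbol. Genes are therefore described by ID, direction and level. The labelled cell types were not checked against marker genes, and no sequence is shown. Whether the line labelled as normal colon epithelium is epithelial was therefore not tested. The comparison is not shown to set a carcinoma against its tissue of origin. The INPUT tables list 60623 IDs. Of these, 20426 are also in the tables of ribosome-protected fragments (RPF) and are called shared IDs here, and 40197 are only in the INPUT tables.

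The 4 libraries held between 1616158 and 9105954 counts and detected between 14895 and 16133 IDs. The 841CON libraries stood apart from each other. Replicate 1, with 1616158 counts, had 14.4% of its counts in INPUT-only IDs, and replicate 2, with 9105954 counts, had 27.6%. Replicate 2 was the deepest INPUT library of the series but detected 10705 shared IDs, fewer than the 12226 of replicate 1. The HCT116 libraries were alike, with 2274695 and 3172621 counts, 27.0% and 28.0% of them in INPUT-only IDs, and 11720 and 11668 shared IDs detected. Levels below are in CPM: each count was divided by its library size, corrected with trimmed means. One count was worth 0.708 and 0.131 CPM in the 841CON libraries and 0.496 and 0.369 CPM in those of HCT116. The lower limit set by counting is therefore about the same in both HCT116 libraries and differs between those of 841CON.

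Replicate spread was unequal between the lines. Over the 14982 IDs tested, log2 CPM of the paired libraries correlated across IDs at r = 0.818 in 841CON and 0.983 in HCT116, and the biological coefficient of variation was 0.857 and 0.0658. IDs are not independent replicates, and these r describe single pairs. The fit shared 1 spread per ID among all groups. Its common coefficient of 0.487 is below that of the 841CON pair and above that of the HCT116 pair. The p-values thus set 841CON against a smaller spread than its own. The paired levels lay at least 2-fold apart (with 1 CPM added to each) for 6787 IDs in 841CON and for 634 in HCT116. Among the 4841 IDs called below, 1649 (34.1%) lay that far apart in 841CON. Of the 9076 IDs at 10 CPM or more in 841CON replicate 1, 311 had no count in replicate 2, although that library is deeper. Of the 8789 at that level in replicate 2, 75 had none in replicate 1. In HCT116 there was no such ID in either direction, among 9057 and 9022. The chi-square between the HCT116 libraries was 1.88 per ID, where sampling alone gives 1. This does not show that they are separate cultures, so results are also given with the pair summed into 1 library.

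**Figure D1:**
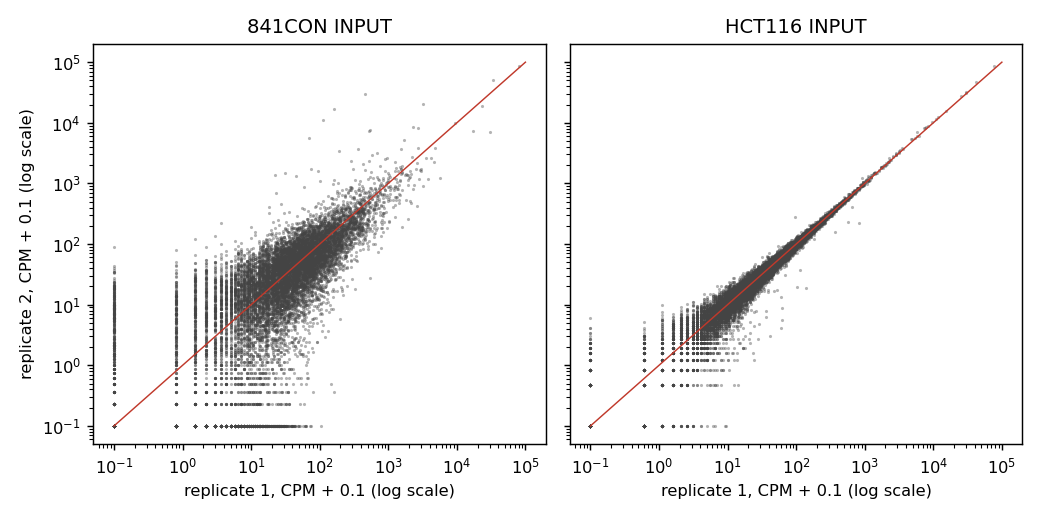
INPUT level of each tested ID in replicate 1 (horizontal) and replicate 2 (vertical) of 841CON and of HCT116, in CPM with 0.1 added, on log axes. The line marks equal levels. The 841CON points scatter widely (r = 0.818), and the HCT116 points lie along the line (r = 0.983).

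HCT116 and 841CON differed in RNA level in both directions, in similar numbers. Of 14982 IDs tested, 4841 (32.3%) differed. In HCT116 2327 were higher, 15.5% of those tested, and 2514 were lower, or 16.8%. A further 10141 did not pass. An ID was called at a Benjamini-Hochberg adjusted p under 0.05 in edgeR's quasi-likelihood test, and 6445 had an unadjusted p under 0.05. The median log2 change over all tested IDs was 0, and the quartiles lay at -1.42 and 1.27. The IDs called higher had a median level of 2.45 CPM in 841CON and 39.3 CPM in HCT116. Those called lower had a median of 66.7 CPM in 841CON and 6.21 CPM in HCT116.

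Counting the close HCT116 pair as 1 summed library left 2024 called IDs, 1124 higher and 900 lower, all of them among the 4841 called with both libraries. Without 841CON replicate 1 the test called 3884 higher and 3199 lower, and without 841CON replicate 2 it called 1986 higher and 2617 lower. Without HCT116 replicate 1 there were 1055 higher and 835 lower, and without HCT116 replicate 2 there were 1004 higher and 775 lower. Which side was larger thus depended on the libraries used, whereas calls were made in both directions in each of these fits.

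**Figure D2:**
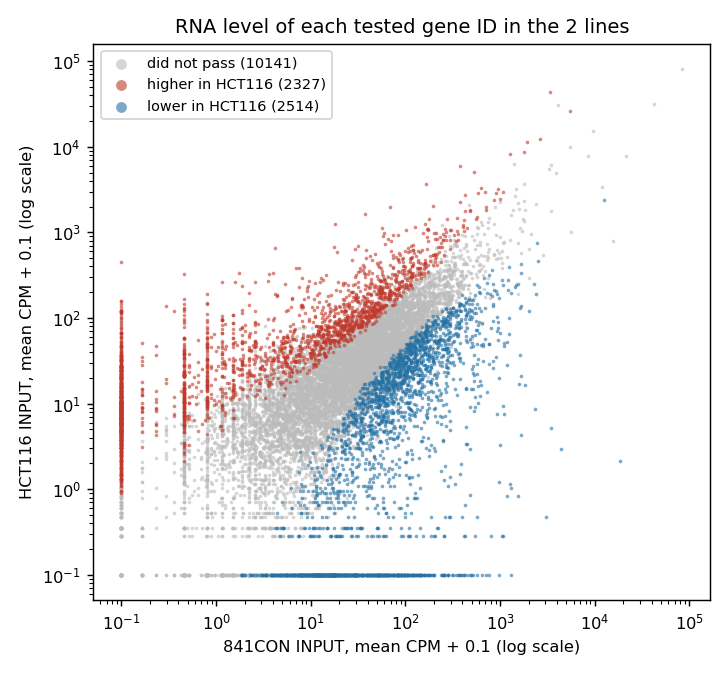
Mean INPUT level of each of the 14982 tested IDs in 841CON (horizontal) and HCT116 (vertical), in CPM with 0.1 added, on log axes, with the 2327 IDs called higher in HCT116 in red and the 2514 called lower in blue. The rows of points along the left and lower edges are IDs with no count in one line.

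The called IDs were also described by the overlap of their libraries. The CPM of the 2 lines did not overlap for any of the 2327 IDs called higher and for 2494 of the 2514 called lower. Among all tested IDs, 33.9% lay wholly above and 30.0% wholly below without overlap, so with 2 libraries a line this alone is common, and the called IDs were themselves chosen by a difference set against the spread. A stricter measure is the lowest library of the higher line over the highest library of the lower line, with a library under 3 counts set to 3. This ratio was at least 4 for 998 IDs called higher and 1268 called lower, and at least 10 for 365 and 590. It was at least 100 for 4 IDs called higher and 67 called lower. Ratios of at least 100 were thus more frequent among the IDs higher in 841CON. The floor of 3 counts was 2.12 and 0.392 CPM in the 841CON libraries and 1.49 and 1.11 CPM in those of HCT116, so the shallow replicate 1 of 841CON set the highest floor, which bounds the ratio of IDs higher in HCT116.

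Shared and INPUT-only IDs divided differently. Among 12808 shared IDs tested, 34.1% were called, 2015 higher (15.7%) and 2357 lower (18.4%), and their median log2 change was -0.04. Among 2174 INPUT-only IDs, 21.6% were called, 312 higher (14.4%) and 157 lower (7.22%), and their median was 0.31. The quartiles were -1.44 and 1.14 for shared IDs and -1.21 and 2.33 for INPUT-only IDs. The share of counts in this class also differed between the 841CON replicates, 14.4% and 27.6%, and its part in this split was not tested. Without 841CON replicate 1 the INPUT-only IDs had 555 higher and 333 lower calls. Without 841CON replicate 2 the counts were nearer to each other, at 210 and 178, and with no filter on low counts they were 440 and 330. With the HCT116 pair summed, or with either HCT116 library left out, higher calls of this class also outnumbered lower ones. In those fits, and without 841CON replicate 1, the same was true over all tested IDs. Over all tested IDs lower calls were the more frequent without 841CON replicate 2 and with no filter. The counts of this class are not set against the number of its IDs tested in each fit.

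Calls were more frequent among the most abundant RNAs. The tested IDs were split into 4 classes by mean CPM over the 12 INPUT libraries. In the lowest class, from 0.586 to 7.36 CPM, 14.5% were higher and 12.1% lower. In the highest class, above 54.4 CPM, 19.9% were higher and 20.9% lower. The quartiles of the log2 changes were -2.43 and 2.64 in the lowest class and -1.04 and 1 in the highest. The lowest class thus had wider fitted changes and a smaller share of calls than the highest.

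The called IDs held a large part of each line's RNA. The IDs called lower in HCT116 took 37.3% and 29.5% of the counts of the 841CON libraries and 5.01% and 4.88% of those of HCT116. The IDs called higher took 6.44% and 7.48% in 841CON and 35.5% and 35.7% in HCT116. These shares follow from how the IDs were chosen and are given as a description. The 10 most abundant of the lower IDs alone held 6.68% and 2.62% of the 841CON libraries and 0.353% and 0.351% of those of HCT116. In parental HCT15 the lower IDs held 10.5% and 13.4% and the higher IDs 25.2% and 24.6%. In SW620 they held 8.93% and 8.52%, and 22.1% and 18.9%. Since the IDs were chosen as far apart in 841CON and HCT116, a place of the other lines between them follows largely from that choice, and nothing is read from it.

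**Figure D3:**
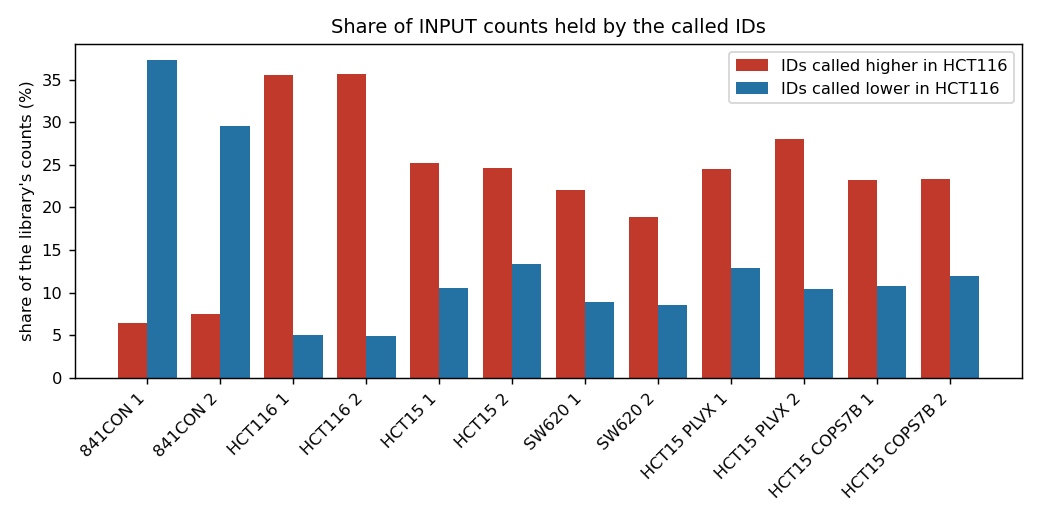
Share of each INPUT library's counts, in percent, in the IDs called higher (red) and lower (blue) in HCT116 relative to 841CON, with 1 pair of bars per library. The lower IDs take 37.3% and 29.5% in 841CON, from which they were partly chosen, and between 8.52% and 13.4% in the HCT15 and SW620 libraries.

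The largest fitted changes belonged to IDs found in one line and absent from the other. Among called IDs with a mean of at least 50 counts and no overlap, 1215 were higher and 1950 lower, and the 2 with the largest fitted change in each direction are given here. ENSG00000101188 had 0 counts in both 841CON libraries and 885 and 1224 counts in HCT116, or 439 and 451 CPM. Of these 4 libraries only those of HCT116 held it, and the lines did not overlap. Its level of 445 ± 8.47 CPM (SD, n = 2) was at least 1350-fold higher than the 841CON floor of 3 counts over both libraries, or 0.331 CPM (edgeR quasi-likelihood test, adjusted p = 0.00014).

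ENSG00000114115 had 0 counts in both 841CON libraries and 314 and 434 counts in HCT116, or 156 and 160 CPM. It too was found in HCT116 only of the pair of lines. Its level of 158 ± 2.93 CPM (SD, n = 2) was at least 477-fold higher than the same floor (edgeR adjusted p = 0.00018). In the footprint libraries ENSG00000101188 had 147 and 136 counts in HCT116 and 0 and 1 in 841CON, and ENSG00000114115 had 126 and 118 against none. Both passed the footprint comparison, with higher levels in HCT116 (edgeR adjusted p = 0.00049 and 1.4e-05). The footprint libraries thus held these IDs in the same line as the INPUT libraries.

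ENSG00000141753 had 2942 and 3986 counts in 841CON, or 2080 and 521 CPM, and 0 in both HCT116 libraries. The 841CON mean was 1300 ± 1110 CPM (SD, n = 2), and both libraries lay far above HCT116. Its level was at least 2050-fold lower in HCT116, at a floor of 3 counts over both HCT116 libraries or 0.635 CPM (edgeR adjusted p = 0.0034). Footprints numbered 2031 and 967 in 841CON and 3 and 5 in HCT116 (edgeR adjusted p = 1.8e-05), so that RNA listed at 0 was accompanied by a few footprints.

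ENSG00000268388, an INPUT-only ID, had 1312 and 7879 counts in 841CON and 0 in both HCT116 libraries. Scaled for depth its 841CON libraries were close, at 929 and 1030 CPM, and HCT116 did not overlap them. Its mean of 979 ± 70.5 CPM (SD, n = 2) was at least 1540-fold above the HCT116 floor (edgeR adjusted p = 0.006). No footprint value is given for it, since it is not among the shared IDs. The bounds moved with the libraries used. With each of the 4 libraries left out in turn, the bound ranged from 210 to 1360 for ENSG00000101188 and from 74.3 to 484 for ENSG00000114115, lowest without the deep 841CON replicate 2. It ranged from 820 to 3280 for ENSG00000141753, lowest without 841CON replicate 1 (875 without HCT116 replicate 2, 1180 without HCT116 replicate 1). For ENSG00000268388 it ranged from 658 without HCT116 replicate 2 (885 without HCT116 replicate 1) to 1620. Bounds on these folds cover counting error at the floor only, and fitted log2 changes of such IDs, 13.42, 11.93, -14.97 and -14.56 in the order given, depend on the prior count and are no bounds. All 4 calls held in every alternative in which the ID was tested, which follows largely from their choice as extremes.

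**Figure D4:**
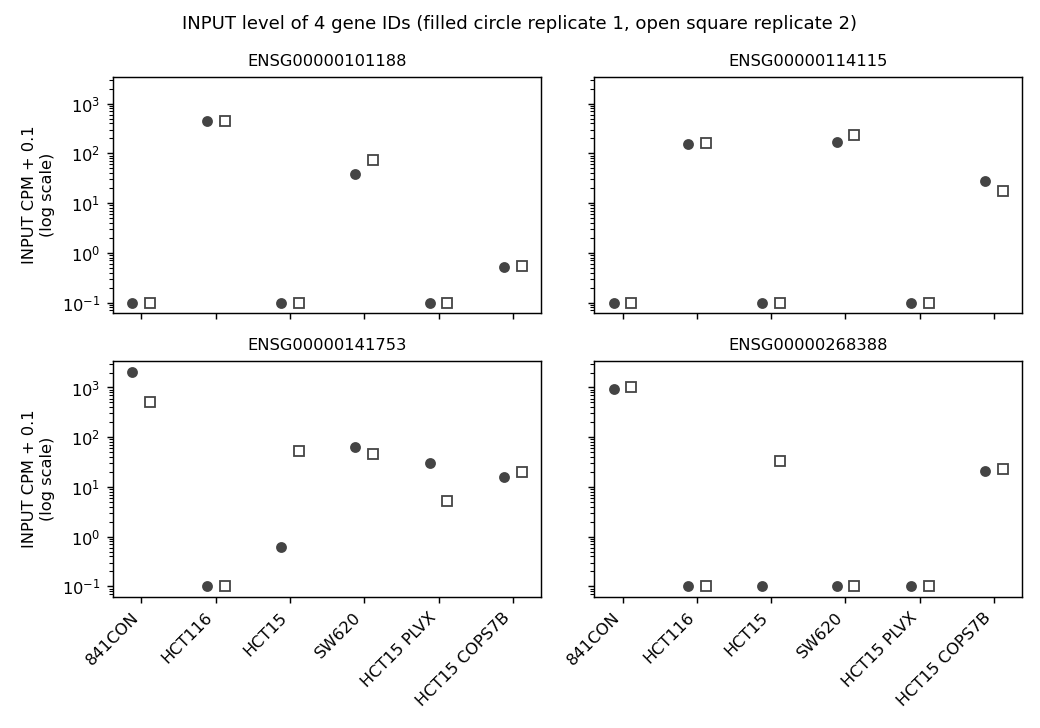
INPUT level of 4 IDs in the 12 INPUT libraries, in CPM with 0.1 added, on a log axis, with a filled circle for replicate 1 and an open square for replicate 2. The upper pair of IDs lie at the bottom in 841CON and between 156 and 451 CPM in HCT116, and the lower pair lie between 521 and 2080 CPM in 841CON and at the bottom in HCT116.

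Such presence in one line only was frequent. With 10 CPM as the level of presence, judged on the mean of a line's libraries, 588 IDs were present in 841CON and had no count in either HCT116 library, and 279 were present in HCT116 with no count in either 841CON library. Of the 588, 32 had no count in one of the 841CON libraries, and of the 279 none lacked counts in an HCT116 library. The first had a median level of 25.9 CPM in 841CON, with 190 at 50 CPM or more. The second had a median of 19.9 CPM in HCT116, with 34 at 50 CPM or more. Shared IDs made up 530 of the 588 and 248 of the 279. These IDs were chosen by their INPUT levels, so their INPUT calls, 538 of 554 tested and all 279, are no separate result.

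The count of 279 rested on both 841CON libraries. Without 841CON replicate 1, 842 IDs met the same definition, and without replicate 2, 346 did. The 588 ranged from 552 to 667 when each of the 4 libraries was left out in turn. Equal depth in all libraries gave 660 and 324. The larger number on the side of 841CON therefore turned when replicate 1 of 841CON was left out, at 552 against 842.

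Footprints gave a second readout of the IDs present in one line only, from libraries that the choice did not use. Of the 530 shared IDs with no INPUT count in HCT116, 338 (63.8%) also had no footprint count in HCT116, against 31.6% of the 12808 shared IDs tested. In 841CON 453 of them (85.5%) had footprints in both libraries, against 76.0% of the shared IDs tested. Of the 248 shared IDs with no INPUT count in 841CON, 197 (79.4%) had no footprint count there, against 18.6%. In HCT116 133 of them (53.6%) had footprints in both libraries, against 58.7%. Absence from INPUT thus went with absence of footprints more often than over all shared IDs tested. The IDs of these sets and the tested IDs differ in level, which these shares do not take into account.

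The same held across called IDs. Of 1877 shared IDs called higher in INPUT and tested in the footprint libraries, 994 were higher and 187 lower in footprints, where 62.1% of the 12368 IDs tested were called, 24.2% higher and 37.9% lower. Of 2206 called lower in INPUT, 1521 were lower and 155 higher in footprints. Of 7849 with no INPUT call, 1749 were higher and 2831 lower. The median footprint change was 1.40 on the log2 scale for IDs called higher in INPUT, -4.13 for those called lower and -0.20 for the rest. INPUT and footprints of a line are separate libraries but may come from the same culture.

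The other cancer lines were set beside HCT116 without 841CON. Of 14982 IDs, 3684 differed between HCT116 and the mean of HCT15 and SW620 (24.6%), with 2075 higher (13.8%) and 1609 lower (10.7%) in HCT116 by edgeR's quasi-likelihood test. With the HCT116 pair summed 830 passed. ENSG00000101188 stood at 55.8 ± 24.8 CPM in SW620 (SD, n = 2) and had no count in either HCT15 library, and HCT116 was higher than their mean (log2 difference 8.20, edgeR adjusted p = 0.00022). ENSG00000114115 stood at 200 ± 46.7 CPM in SW620, above its 158 CPM in HCT116, and had no count in parental HCT15. The COPS7B libraries of HCT15 held it at 27.7 and 17.5 CPM, and the PLVX libraries had no count. For this ID too HCT116 passed as higher than the mean of parental HCT15 and SW620 (log2 difference 5.79, edgeR adjusted p = 0.00084). That mean is taken over fitted log2 levels, not CPM, and averages a line at 0 with one above HCT116. With HCT15 at 0, the log2 differences of both IDs depend on the prior count and are no bounds.

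In ENSG00000141753 the other lines lay between 841CON and HCT116, at 54.1 ± 12.2 CPM in SW620 and 0.523 and 53 CPM in the HCT15 libraries. HCT116 was lower than their mean (log2 difference -9.85, edgeR adjusted p = 0.031), and this call was lost without HCT15 replicate 2 (log2 difference -7.10, adjusted p = 0.058). ENSG00000268388 had no count in SW620, none in HCT15 replicate 1 and 92 counts, or 33.2 CPM, in HCT15 replicate 2. It did not pass against the other lines (edgeR adjusted p = 1). The COPS7B libraries of HCT15, not part of that comparison's mean, held it at 50 and 104 counts, or 20.4 and 23.3 CPM. The PLVX libraries had no count of it.

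Over the IDs present in one line only, HCT15 replicate 2 again stood apart from its partner. Of the 588 IDs present in 841CON and absent from HCT116, 514 (87.4%) had counts in HCT15 replicate 2 and 156 (26.5%) in HCT15 replicate 1, while SW620 had 256 and 260. Among the 190 of them at 50 CPM or more, 187 had counts in HCT15 replicate 2, at a median of 3.47% of the 841CON level (quartiles 2.44% and 5.58%), and 47 had counts in replicate 1. This was not particular to HCT15 replicate 2. The COPS7B libraries of HCT15 counted 390 (66.3%) and 451 (76.7%) of the 588, and the PLVX libraries 266 and 217. Of the 190, the COPS7B libraries counted 140 and 154, at medians of 4.89% and 3.9% of the 841CON level, and the PLVX libraries 80 and 67. For the 279 IDs present in HCT116 and absent from 841CON, the parental HCT15 replicates were closer, with 145 and 168 counted. The part of HCT15 replicate 2 in the comparison with the other cancer lines was checked by leaving it out, which gave 4229 calls in place of 3684. In the comparison with 841CON, where HCT15 enters through the spread and the filter, 5732 IDs passed without it.

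**Figure D5:**
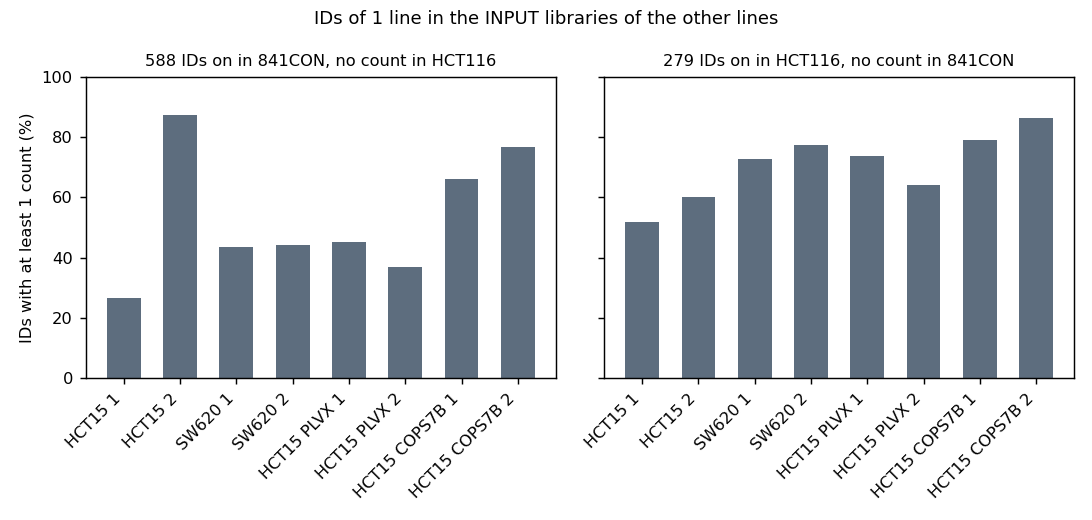
Share of the 588 IDs present in 841CON and absent from HCT116 (left) and of the 279 IDs present in HCT116 and absent from 841CON (right) that had at least 1 count in each INPUT library of the other lines, in percent. On the left HCT15 replicate 2 reaches 87.4%, HCT15 replicate 1 26.5% and the COPS7B libraries 66.3% and 76.7%.

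Some of these IDs were also absent from both other cancer lines. Of the 588 IDs present in 841CON and absent from HCT116, 45 also had no count in HCT15 and SW620, and 260 had none when HCT15 replicate 2 was left out. Of the 279 present in HCT116 and absent from 841CON, 34 had none in either, and 41 without that library. At 10 CPM or more, 67 of the 588 were present in HCT15 and 74 in SW620, with 24 in both. Of the 279, 72 were present in HCT15 and 84 in SW620, with 39 in both. The remaining 471 and 162 did not reach that level in either line. Over all tested IDs, 7.44% had no count in HCT15 and 7.72% had none in SW620. Of the 588, 11.2% had none in HCT15 and 49.1% in SW620, and of the 279, 35.5% and 18.6%. These shares do not take the level of the IDs into account.

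One gene group could be followed by ID, the genes used to assign cell-cycle phase in the scran package, which ships them as pairs of Ensembl IDs. Such genes encode, among others, the cyclins, replication factors and mitotic proteins whose RNA rises and falls as cells divide. Of 1314 IDs in the pairs, 1192 were tested, and 261 were higher (21.9%) and 185 lower (15.5%) in HCT116, against 15.5% and 16.8% of all tested IDs. Their median log2 change was 0.19, against 0 over all tested IDs. Together they held 9.42% and 9.43% of the counts in 841CON and 9.73% and 9.52% in HCT116. With the HCT116 pair summed 143 were higher and 63 lower, in a fit that called 6.72% of all tested IDs higher and 5.38% lower. In both fits with 1 HCT116 library left out, more of the list were higher than lower, as were more of all tested IDs. In limma with library weights 169 were higher and 140 lower, with 12.5% and 14.5% of all tested IDs. When only the 4 libraries were fitted 139 were higher and 103 lower, with 11% and 13.2% of all tested IDs. Without the COPS7B libraries 208 were higher and 180 lower, with 13.2% and 15.8% of all tested IDs. The list's counts in these alternative fits are not given as shares of its IDs tested there. They cannot be compared directly with the percentages beside them.

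By phase, 113 of the IDs that always rank first in the G1 pairs, above their partner ID in G1 cells, were tested. Of these 34 were higher (30.1%) and 13 lower (11.5%), against 15.5% and 16.8% of all tested IDs. The median log2 change of these G1 IDs was 0.62. They held 0.802% and 0.932% of the counts in 841CON and 1.40% and 1.38% in HCT116. For S phase 27 of 121 were higher (22.3%) and 24 lower (19.8%), with a median of 0.06. For G2 and mitosis 18 of 115 were higher (15.7%) and 20 lower (17.4%), near the shares over all tested IDs, with a median of 0.21. In footprints, 335 of 1186 cell-cycle IDs were higher (28.2%) and 422 lower (35.6%), near the 24.2% and 37.9% over all IDs tested there, with a median of -0.14 against -0.24. These counts describe the lists and are no test of a difference in cell division.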

How the data were processed

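The authors deposited raw counts per Ensembl ID for each library, which were used as deposited. Tools named in the submitters' processing notes are STAR 2.7.9, cutadapt 3.5 and HTSeq 2.0.2, with GRCh38 as the build. Which settings, annotation release and strand mode were used is not given in the sources used here, and this leaves near-identical, overlapping and antisense genes uncertain. Lines that name no gene, found in 4 of 12 INPUT tables (PLVX and COPS7B, 53.6% to 76% of their counts) and 4 of 12 RPF tables (80.5% to 90.8%), were left out.

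A single edgeR 4.0.16 quasi-likelihood model (R 4.3.3) estimated 1 mean for each of the 6 groups from the 12 INPUT libraries. It kept 6 residual degrees of freedom, after edgeR's expression filter at a minimum count of 10 and trimmed-mean scaling, which takes most genes as unchanged. The 12 RPF libraries had a fit of their own, made the same way. All tests were two-sided. The alternatives included DESeq2 1.42.0 and limma 3.58.1. On simulated data the procedure recovered 17.3% of 4-fold and 57.7% of 16-fold changes and made 0 calls where nothing was changed. IDs that did not pass are therefore not shown to be equal. The simulation gave all groups the same spread per ID, unlike the 841CON and HCT116 pairs. Reads carry no molecular identifiers, so floors cover counting error only.

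Members and lists were chosen with earlier results of these data known. Named genes were to be fixed identity genes, members of gene lists and the extremes among called, non-overlapping IDs with a mean of at least 50 counts. Identity genes, lists and cell type markers were written as symbols and could not be applied, so only the 2 extremes in each direction are given. The scran 1.30.0 cell-cycle IDs, the level of presence and its alternatives, and the fits without COPS7B, without HCT15 replicate 2 or on IDs counted in all 4 libraries, and the left-out libraries for bounds and absent IDs, were chosen after seeing the data.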

Additional observations from a re-analysis of the deposited data

Results flagged for a closer look

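The difference between HCT116 and 841CON is not the same as that between the other cancer lines and 841CON for 3684 IDs, by the test of HCT116 against the mean of HCT15 and SW620 (edgeR adjusted p under 0.05). The same test picked out 3 of the 4 IDs given above. The log2 difference was 8.20 for ENSG00000101188 and 5.79 for ENSG00000114115, both higher in HCT116 than that mean, and -9.85 for ENSG00000141753, lower in HCT116. The last call was lost without HCT15 replicate 2 (log2 difference -7.10, edgeR adjusted p = 0.058). ENSG00000114115 stood at 200 CPM in SW620, above its 158 CPM in HCT116, and at 0 in parental HCT15. The mean is taken over fitted log2 levels, not CPM. Each of these 3 log2 differences involves a line with no count, so it depends on the prior count and is no bound.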

How the results depend on the processing

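The total of 4841 called IDs (2327 higher, 2514 lower) was 2993 (1360 and 1633) when only the 4 libraries were fitted, 2024 (1124 and 900) with the HCT116 pair summed and 3032 (1304 and 1728) over IDs counted in all 4 libraries. It was 1779 to 7083 with 1 of the 4 libraries left out (1004 to 3884 higher, 775 to 3199 lower). At a mean of at least 50 counts 1357 were higher and 1957 lower, of 8623 tested, with a median log2 change of -0.18. Higher IDs outnumbered lower ones in 4 of 20 alternatives: the summed HCT116 pair and the fits without 841CON replicate 1 or without either HCT116 library. The comparison with the other cancer lines, 3684 calls, gave 7715 in limma with library weights, 1545 at a 2-fold minimum, 830 with the HCT116 pair summed and 657 to 4229 with a library left out. IDs at 0 in HCT116 and present in 841CON, 588, numbered 190 at 50 CPM. IDs at 0 in 841CON and present in HCT116, 279, numbered 544 at 5 CPM, 34 at 50 CPM and 270 to 842 with a library left out. The causes were not tested, apart from fewer libraries or IDs by construction.

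The replicate differences of 841CON and HCT116 were hardly correlated between same-numbered libraries (r = 0.0187). The HCT116 replicates differed little beyond sampling, so this r cannot tell whether same-numbered libraries were handled together. With the replicate block 4232 IDs were called, 2059 higher and 2173 lower, and 7563 for footprints. The 4 IDs given by name kept direction and call against 841CON in all 74 of their alternatives. They were chosen as extremes and have no count in one line, so this follows largely from their choice. A depth of 1616158 counts in the shallowest of the 4 libraries limits what a count of 0 can show.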

Other observations

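Some IDs at 0 in INPUT had many footprints in the same line. Of the 530 shared IDs present in 841CON and at 0 in both HCT116 INPUT libraries, 192 had a footprint count in HCT116, 68 had at least 10 over both footprint libraries and 32 had at least 100. In the other direction, of 248 IDs at 0 in 841CON INPUT, 51 had a footprint count in 841CON, 5 had at least 10 and 1 had at least 100. The mean footprint count per library size was higher in the line at 0 than in the other line for 35 of the 530 and 15 of the 248.

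Over the 14982 tested IDs, the HCT116 INPUT pair had 1781 IDs with no count, 793 with 1 to 5 counts and 1368 with 6 to 20. The 841CON pair had 1482, 1128 and 1183, and SW620 had 1157, 1198 and 1893.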
